A study of Mus musculus with 9 samples.

Results

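Integrins and cadherins are the main families of proteins by which cells hold on to the matrix and to each other. An integrin is a pair of 1 alpha and 1 beta chain that spans the membrane and ties matrix proteins such as fibronectin, laminin and collagen to the actin skeleton through adaptors such as talin. A classical cadherin binds the same kind of cadherin on the next cell and is held inside by catenins. In mouse embryonic stem cells E-cadherin (Cdh1) holds the colony together, and mesenchymal cells such as fibroblasts carry N-cadherin (Cdh2) in its place, an exchange known as the cadherin switch.

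The genes were taken from the deposited expression table by symbol, namely Itga or Itgb followed by a digit or 1 letter, and Cdh followed by digits alone. This gave 51 genes, measured by 55 of the 28853 probe sets on the array, and each gene was read from its brightest probe set, by the mean of the 9 arrays. There were 18 alpha integrins, 9 beta integrins (with Itgb2l), 5 type I cadherins (Cdh1, Cdh2, Cdh3, Cdh4 and Cdh15) and 13 type II cadherins, the latter 2 groups being the classical ones. The rule also took 5 cadherins of other kinds (Cdh13, Cdh16, Cdh17, Cdh23 and Cdh26), so the set is wider than the classical cadherins. It took Itgbl1 too, which resembles a beta chain but is not an integrin chain.

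RNA of 3 groups of mouse cells, labelled ESC, D5 and D10, was measured on 3 arrays each. ESC are embryonic stem cells derived from 3.5-day blastocysts. The D5 and D10 lines were grown from green cells sorted out of the bone marrow of mice that had received these ESCs, on day 5 and on day 10 after transplantation. All 3 groups share the C57BL/6×Oct4/EGFP transgenic OG2 background, in which the Oct4 promoter drives green fluorescence in pluripotent cells, and all were cultured on feeder cells. The second part of the strain label carries a number that goes up by 1 from sample to sample and was not used. The labels describe 1 line for each re-derived group, although titles speak of lines, so p-values here reflect how samples called biological replicates vary and not how separate derivations vary. The number of arrays limits the precision. D10 replicates 1 and 3 differed by less than other replicates and were counted as 1 sample. Between them the log2 values differed with a standard deviation (SD) of 0.0686, where all remaining pairs within a group gave 0.154 to 0.201. Hence n = 3 for ESC and D5 and n = 2 for D10. The D10 mean and SD below are over these 2 samples, while all 3 arrays are shown.

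Values are on a log2 scale, on which a difference of 1 is a 2-fold change. A background level of 3.75 was set from 1246 probe sets of receptors for smell and pheromones (Olfr and Vmn genes), as their 95th percentile. Of the 51 genes 33 had a mean above it (64.7%, against 62.6% of all probe sets). The group means of 30 genes lay above it in every group, those of 8 in some groups, and those of 13 in none. Levels of single genes are compared only within a probe set, since brightness differs between probe sets. The sums of marker genes below add the linear signal of the same probe sets in each group, so the brightest probe sets weigh most in them.

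The labelled cell types were checked by marker genes. All 12 pluripotency markers lay above background in each group. Against ESC 0 of them rose and 6 fell in D5, and 0 rose and 5 fell in D10, where 1.50% and 3.33% of all probe sets fell. Pou5f1 (Oct4) had means of 10.75, 10.56 and 10.44 in ESC, D5 and D10, and did not pass (limma, adjusted p = 0.302 in D5 and 0.0796 in D10). The summed linear signal of the 12 markers was 11860 to 12460 over the ESC arrays, 9181 to 9807 in D5 and 8845 to 9081 in D10. Of 25 fibroblast and feeder markers 19 rose in D5 and 24 in D10, where 2.36% and 5.32% of all probe sets rose. Their summed linear signal was 2853 to 3275 in ESC, 5120 to 5633 in D5 and 7429 to 7548 in D10. The groups did not overlap in this sum, and 23, 24 and 24 of the 25 markers had group means above background. Of 22 leukocyte and blood cell markers 0 passed in any comparison, 5, 5 and 4 lay above background in ESC, D5 and D10, and the sums overlapped (215.1 to 249.8, 198.5 to 247.4 and 198.7 to 244.2). Ptprc (CD45), the surface protein of all white blood cells, lay between 2.64 and 3.12 on the 9 arrays, below background. The fibroblast sum rose in D5 and D10. In several groups of genes described below more members rose than fell, and the part of the fibroblast sum in those results was not tested. In such bulk samples a different share of a cell type and a different amount of RNA per cell cannot be told apart.

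Start sites are shown for 3 integrin genes that rose, Itgb1, Itgav and Itga5, and for Itgb7, which fell. They were picked as examples of genes that moved in opposite directions, to show which short factor sites lie next to their starts. RefSeq held promoter windows for 33 of the 51 genes. Each window runs 5′ to 3′ along the gene from 250 bases before an annotated start to 50 bases after it (build GRCm38.p6). It lies at chr8:128685404-128685703 on the plus strand for Itgb1 and at chr2:83724147-83724446 on the plus strand for Itgav. It lies at chr15:103366742-103367041 on the minus strand for Itga5 and at chr15:102231886-102232185 on the minus strand for Itgb7. The windows of Itgb1 and Itga5 lie at the outer 5′ end of the gene. Those of Itgav and Itgb7 lie at a start inside the gene, whose outer 5′ ends are at 83722303 and 102233405. The counts below therefore do not describe the outer 5′ end of Itgav or Itgb7. Capitals mark the GC box GGGCGG, the site of Sp1-type factors, on either strand.
Itgb1: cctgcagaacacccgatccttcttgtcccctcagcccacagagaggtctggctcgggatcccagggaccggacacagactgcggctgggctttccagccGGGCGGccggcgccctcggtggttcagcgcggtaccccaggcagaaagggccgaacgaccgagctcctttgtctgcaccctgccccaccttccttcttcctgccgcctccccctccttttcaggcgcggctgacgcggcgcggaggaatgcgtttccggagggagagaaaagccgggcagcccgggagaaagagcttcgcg
Itgav: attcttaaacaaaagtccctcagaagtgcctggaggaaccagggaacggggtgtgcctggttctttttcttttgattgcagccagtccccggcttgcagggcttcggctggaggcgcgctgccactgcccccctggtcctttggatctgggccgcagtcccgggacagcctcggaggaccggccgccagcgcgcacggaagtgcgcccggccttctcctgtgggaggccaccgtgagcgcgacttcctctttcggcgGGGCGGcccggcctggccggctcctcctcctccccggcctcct
Itga5: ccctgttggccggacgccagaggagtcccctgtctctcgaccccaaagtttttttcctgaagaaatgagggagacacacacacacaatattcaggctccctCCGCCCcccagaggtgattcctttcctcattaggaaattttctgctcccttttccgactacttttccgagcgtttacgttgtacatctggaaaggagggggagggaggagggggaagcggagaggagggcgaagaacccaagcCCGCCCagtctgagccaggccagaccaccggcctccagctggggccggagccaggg
Itgb7: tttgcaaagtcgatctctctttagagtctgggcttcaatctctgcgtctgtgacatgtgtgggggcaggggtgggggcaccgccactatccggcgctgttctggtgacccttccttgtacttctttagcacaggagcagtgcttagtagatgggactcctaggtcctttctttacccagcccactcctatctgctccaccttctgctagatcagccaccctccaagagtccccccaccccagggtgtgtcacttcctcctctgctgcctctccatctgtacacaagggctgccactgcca
The windows of Itgb1 and Itgav held 1 GC box each, that of Itga5 held 2, and that of Itgb7 held 0. The share of all 32851 windows with a GC box was 35.7%, and 15 of 37 windows of the integrin and cadherin genes (some have more than 1 start) held it. The AP-1 site TGANTCA (in 7.81% of all windows) and the E-box CAGGTG bound by Snail and Zeb factors (in 20.2%) were searched on both strands as well, and the 4 windows held 0 of either, so that no motif overlapped another. The dinucleotide CG occurred 27 times in the Itgb1 window, 24 times in Itgav, 13 times in Itga5 and 5 times in Itgb7, at a GC content of 67.3%, 67.3%, 58.7% and 56.3%. These are matches of letters in a window, and no binding was measured.

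In the comparison of D5 with ESC, which asks how the line recovered on day 5 differs from the transplanted cells, N-cadherin, cadherin 11, R-cadherin, cadherin 6 and the integrin chains alpha 3, alpha V and beta 1 were higher, while E-cadherin and integrin beta 7 were lower. Of the 51 genes 7 passed upward (13.7%, against 2.36% of all probe sets) and 2 downward (3.92%, against 1.50% of all probe sets), by limma with an adjusted p under 0.05. All 9 lay above background on average. Among the 33 genes above background these are 7 up and 2 down, where 3.63% and 2.16% of the probe sets above background passed up and down. At an unadjusted p under 0.05 there were 21 genes, but the share of all probe sets at that threshold is not given here, so this count cannot be judged. The median log2 change was 0.11 over the 51 genes and -0.01 over all probe sets. The D5 and ESC arrays did not overlap in any of the 9 genes, but these were picked by a test on the same arrays, so this adds no support. None of the 9 changed 2-fold. The count was 5 in a fit on the ESC and D5 arrays alone, 2, 4 and 1 without ESC replicates 1, 2 and 3, 2, 3 and 4 without D5 replicates 1, 2 and 3, and 5 without D10 replicate 2. Itga3 alone passed under each of the 18 alternatives.

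In the comparison of D10 with ESC, the same question for day 10, N-cadherin, cadherin 11 and integrin beta 8 were at least 2-fold higher, and the integrin chains beta 1, beta 5, alpha V, alpha 2, alpha 3, alpha 4, alpha 5 and alpha 8 were higher by less. Integrin beta 7 was again lower. Of the 51 genes 15 passed upward (29.4%, against 5.32% of all probe sets) and 1 downward (1.96%, against 3.33% of all probe sets). Among the genes above background 13 passed upward and 1 downward, where 7.78% and 4.90% of such probe sets passed. At an unadjusted p under 0.05 there were 23 genes, again without an array-wide share to judge the count by. The median log2 change was 0.14, against -0.02 over all probe sets. The D10 and ESC arrays did not overlap in any of the 16 genes, which were likewise picked on the same arrays, so this adds no support. Without D10 replicate 2, which leaves 1 D10 sample that is assumed to vary like the others, the count was 8. These 8, Cdh2, Cdh6, Cdh11, Itga3, Itga5, Itgav, Itgb1 and Itgb5, passed under each of the 18 alternatives. The authors' deposited table of selected probe sets holds 461 probe sets, among them those of Cdh2, Cdh11 and Itgb8, for which it gives D10 to ESC ratios of 2.55, 2.39 and 2.16.

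Between D10 and D5 no integrin or cadherin gene passed (limma, 0 of 51, lowest adjusted p = 0.095), where 0.194% of all probe sets passed upward and 0.0208% downward, and 0.271% and 0.0332% of those above background. At an unadjusted p under 0.05 there were 13 genes, a count that also has no array-wide share beside it and is no evidence of a difference. In 2 alternatives 3 genes passed (Itga5, Itgav and Itgb1), namely when the fit had an intensity trend and robust estimation, or when the 9 arrays were counted separately. The median log2 change was 0.10 over the 51 genes and -0.00 over all probe sets. Both comparisons with ESC share the ESC arrays, so their values are given side by side. A gene that passed in D10 and not in D5 is not thereby shown to differ between the lines. Of the 18 genes called in any comparison, 7 were called in both comparisons with ESC, 2 in D5 (Cdh1 and Cdh4) and 9 in D10.

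**Figure D1:**
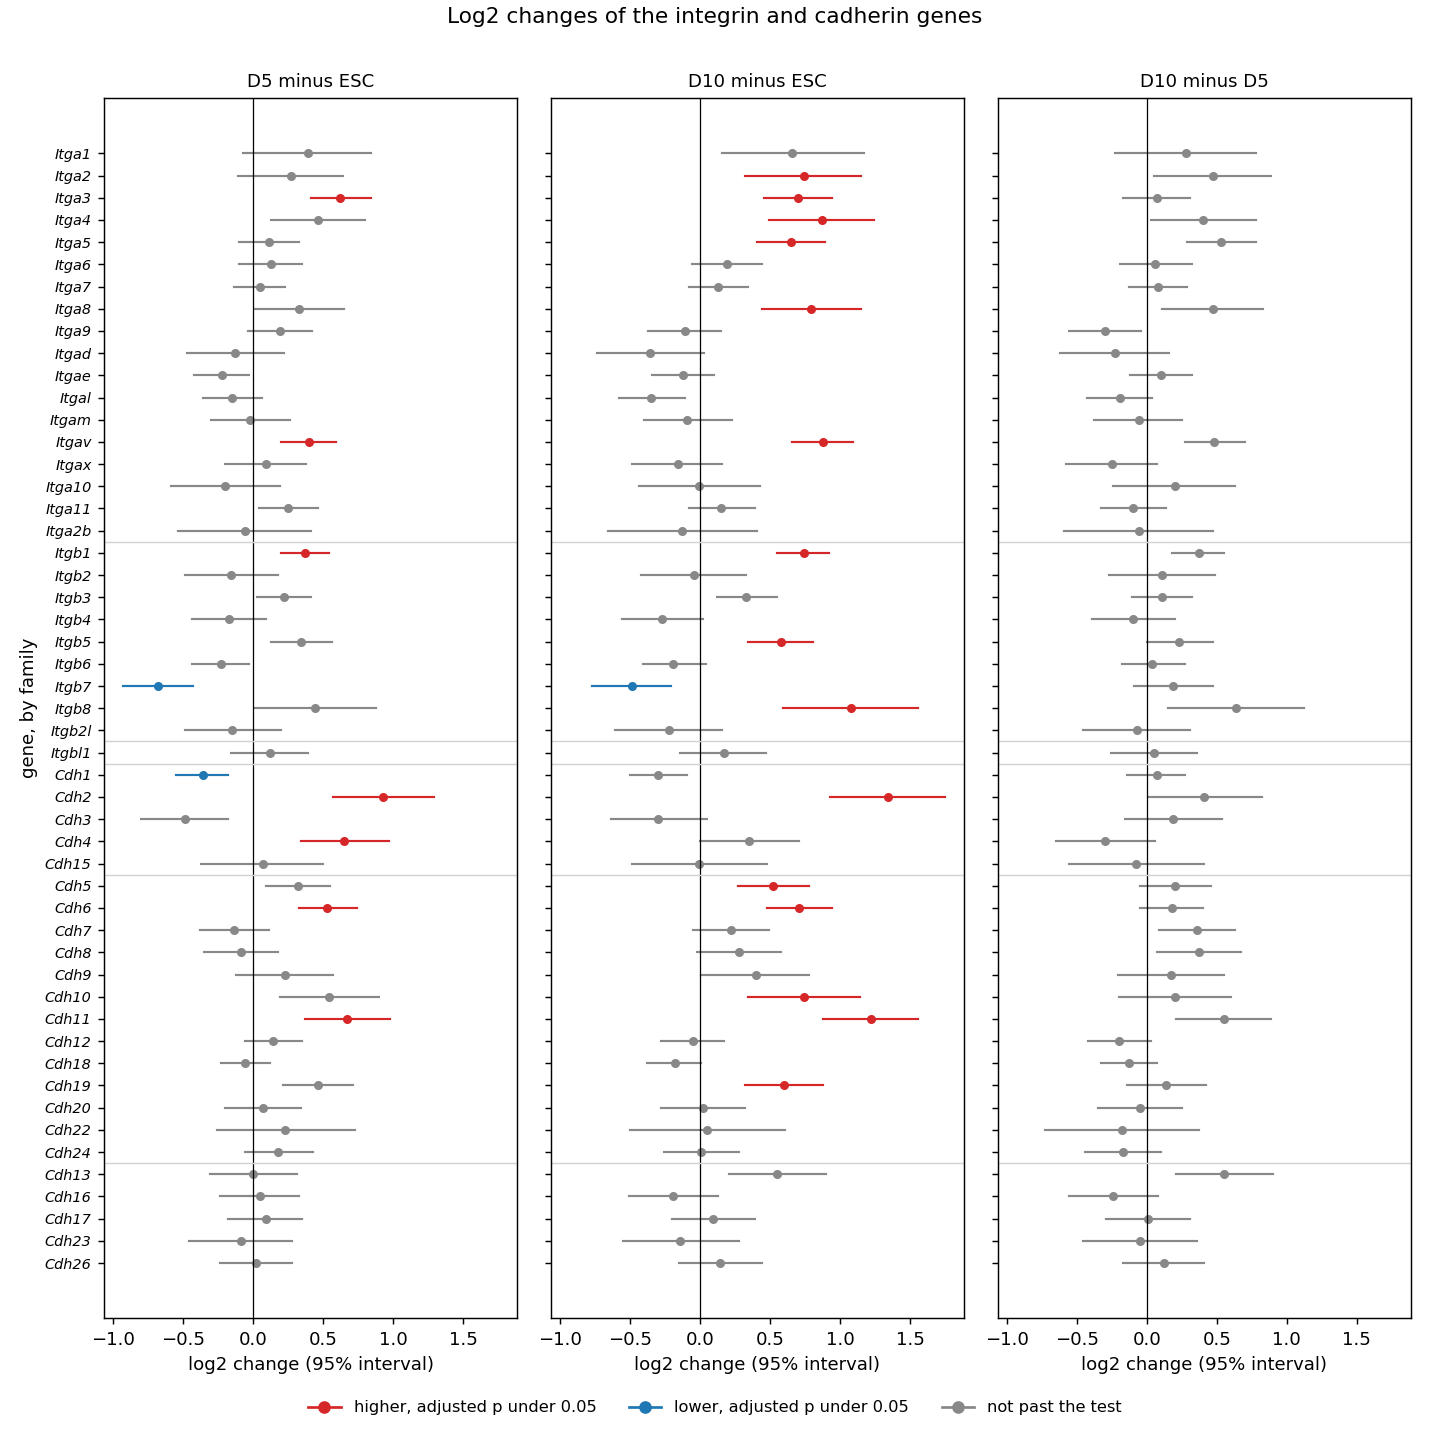
Log2 change of each of the 51 genes (points) with its 95% interval (lines) in D5 minus ESC, D10 minus ESC and D10 minus D5, with colour for genes past an adjusted p of 0.05. The coloured points number 9 in the left panel, 16 in the middle panel and 0 in the right panel, and the coloured points left of zero are Itgb7 and Cdh1 on the left and Itgb7 in the middle.

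Among the beta integrins, Itgb1 encodes the chain that pairs with most alpha chains and serves receptors of fibronectin, laminin and collagen. Its log2 signal was 8.82, 8.81 and 8.80 on the ESC arrays, 9.21, 9.19 and 9.14 in D5, and 9.59, 9.50 and 9.60 in D10. Every D5 array lay above every ESC array, and every D10 array above every D5 array. The change was 0.37 (SE 0.07) in D5 (limma, adjusted p = 0.0295) and 0.74 (SE 0.08) in D10 (limma, adjusted p = 0.000972), which is 1.29-fold and 1.67-fold. The D5 call was lost without any 1 of the ESC or D5 arrays and with median centring (highest adjusted p = 0.107), and the D10 call held in each alternative (highest adjusted p = 0.00951). D10 minus D5 was 0.37, with a 95% interval of 0.18 to 0.55 (limma, adjusted p = 0.134).

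The partner chains of alpha V are Itgb1 and the RGD-binding chains Itgb3, Itgb5, Itgb6 and Itgb8. Itgav itself, a receptor chain for vitronectin, fibronectin and latent TGF-beta, read 7.22, 7.15 and 7.13 in ESC, 7.67, 7.45 and 7.57 in D5, and 8.01, 8.08 and 8.02 in D10. The 3 groups again did not overlap. It rose by 0.40 (SE 0.08) in D5 (limma, adjusted p = 0.0399) and by 0.88 (SE 0.09), or 1.84-fold, in D10 (limma, adjusted p = 0.000837). The D5 call was lost without any 1 of the ESC or D5 arrays and without D10 replicate 2 (highest adjusted p = 0.137). D10 minus D5 was 0.48, with a 95% interval of 0.27 to 0.70 (limma, adjusted p = 0.095).

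Itgb5, whose product with alpha V binds vitronectin, read 7.05, 7.02 and 7.02 in ESC, 7.37, 7.42 and 7.32 in D5, and 7.77, 7.46 and 7.74 in D10. It rose by 0.58 (SE 0.10) in D10 (limma, adjusted p = 0.0112), with a D5 change of 0.34 that did not pass (limma, adjusted p = 0.0934). Itgb8, whose product with alpha V releases active TGF-beta from its latent complex, read 3.76, 3.71 and 3.93 in ESC, 4.47, 4.50 and 3.75 in D5, and 4.97, 4.77 and 4.99 in D10. The ESC arrays straddle the background level, and D5 replicate 3 stood with the ESC arrays, apart from the other D5 arrays. Itgb8 rose by 1.08 (SE 0.21), or 2.11-fold, in D10 (limma, adjusted p = 0.0165), a call lost without ESC replicate 1, ESC replicate 2 or D10 replicate 2 (highest adjusted p = 0.0745).

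Itgb3, which pairs with alpha V and with the platelet chain alpha IIb, had means of 5.52 ± 0.10 (SD, n = 3) in ESC, 5.74 ± 0.06 (SD, n = 3) in D5 and 5.85 ± 0.03 (SD, n = 2) in D10. Its D10 change of 0.33 (95% interval 0.12 to 0.55) did not pass (limma, adjusted p = 0.0695). Itgb6, an epithelial partner of alpha V, lay below background in every group, with means between 2.78 and 3.01.

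Itgb7, the partner of alpha 4 and alpha E on gut-homing lymphocytes, was the integrin that fell. It read 5.34, 5.30 and 5.54 in ESC, 4.91, 4.61 and 4.63 in D5, and 5.00, 4.85 and 4.92 in D10. Every ESC array lay above every array of the re-derived lines, and D5 and D10 overlapped. It fell by 0.68 (SE 0.11) on the log2 scale in D5 (limma, adjusted p = 0.013) and by 0.49 (SE 0.12) in D10 (limma, adjusted p = 0.0436). The D5 call was lost without ESC replicate 3, D5 replicate 2 or D5 replicate 3 (highest adjusted p = 0.0576). The D10 call was lost without any 1 of the ESC arrays, D5 replicates 2 or 3, or D10 replicates 2 or 3 (highest adjusted p = 0.201).

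Among the alpha chains, Itga3 and Itga5 encode the laminin and fibronectin receptor chains that pair with beta 1. Itga3 read 5.10, 5.06 and 4.88 in ESC, 5.75, 5.60 and 5.56 in D5, and 5.82, 5.65 and 5.72 in D10. It stood higher in both re-derived lines, which overlapped with each other, by 0.62 (SE 0.09) in D5 (limma, adjusted p = 0.0101) and by 0.70 (SE 0.11) in D10 (limma, adjusted p = 0.00493). Itga5 read 7.43, 7.40 and 7.19 in ESC, 7.42, 7.50 and 7.44 in D5, and 8.09, 7.90 and 8.07 in D10. Here ESC and D5 overlapped and all D10 arrays lay higher. The change was 0.11 (95% interval -0.10 to 0.33) in D5 (limma, adjusted p = 0.632) and 0.65 (SE 0.11), or 1.57-fold, in D10 (limma, adjusted p = 0.00729). D10 minus D5 was 0.53, with a 95% interval of 0.29 to 0.78 (limma, adjusted p = 0.102).

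The other alpha chains that rose in D10 were Itga2 (collagen), Itga4 (the VCAM-1 and fibronectin receptor chain) and Itga8 (nephronectin). Itga4 read 3.49, 4.09 and 3.88 in ESC, 4.25, 4.42 and 4.18 in D5, and 4.65, 4.69 and 4.70 in D10. No array of 1 group overlapped with another group, although ESC replicate 1 lay below background. Itga4 rose by 0.87 (SE 0.16), or 1.82-fold, in D10 (limma, adjusted p = 0.0138), and its D5 change was 0.46 (limma, adjusted p = 0.142). Itga8 read 3.49, 3.78 and 3.89 in ESC, 4.24, 4.10 and 3.80 in D5, and 4.49, 4.54 and 4.49 in D10. The ESC mean lay below background, and D5 overlapped with ESC. Itga8 rose by 0.79 (SE 0.16) in D10 (limma, adjusted p = 0.0165). Itga2 read 4.44, 4.69 and 4.72 in ESC, 4.57, 5.23 and 4.85 in D5, and 5.52, 5.26 and 5.37 in D10, and rose by 0.74 (SE 0.18) in D10 (limma, adjusted p = 0.042). The D10 calls of all 3 genes were lost without D10 replicate 2 (adjusted p = 0.0895 for Itga4, 0.106 for Itga8 and 0.125 for Itga2), and that of Itga2 also without any 1 of the ESC arrays, without D5 replicate 3 or without D10 replicate 1.

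**Figure D2:**
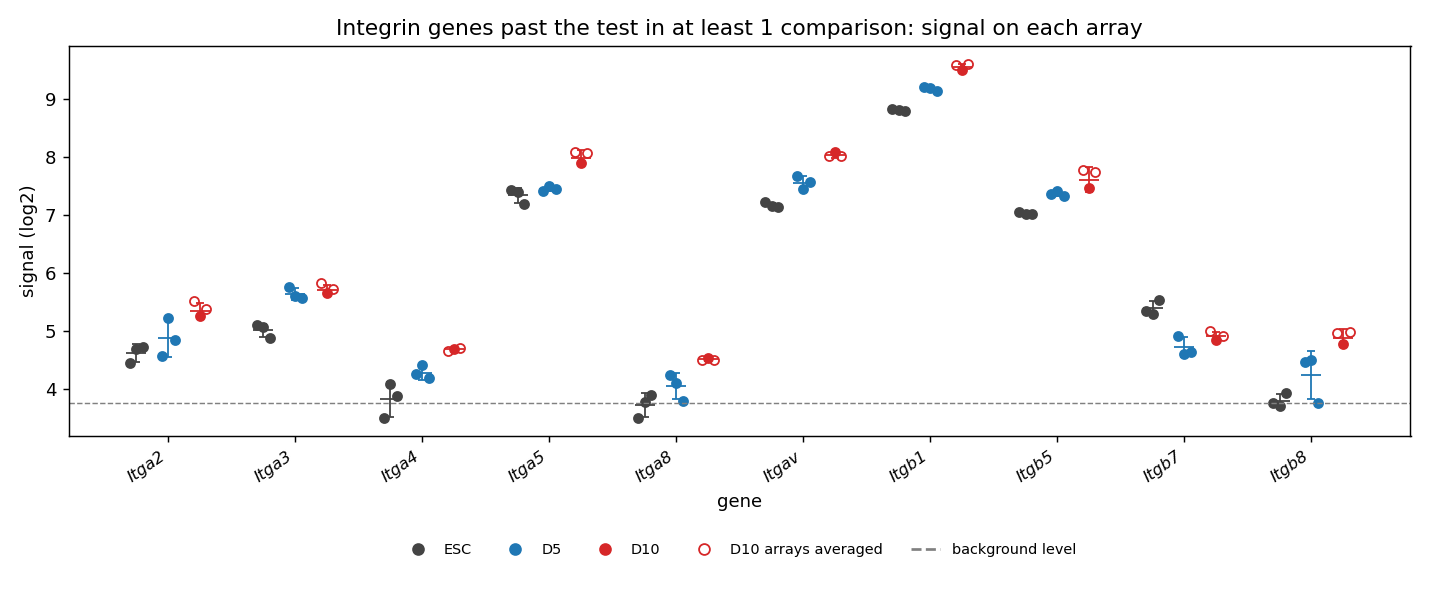
Log2 signal on each array for the 10 integrin genes past the test in at least 1 comparison, with bars for mean and SD, open points for the averaged D10 arrays and a dashed line at the background level of 3.75. The 3 groups of Itgb1 and Itgav are separate and ordered ESC, D5, D10, while Itgb7 is highest in ESC.

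In all, 6 of the 18 alpha chains rose in D10 and 0 fell (median log2 change 0.14), with 2 up and 0 down in D5 (median 0.12). Of the 9 beta chains 3 rose and 1 fell in D10 (median -0.04), and 1 rose and 1 fell in D5 (median -0.15). Over all probe sets 5.32% rose and 3.33% fell in D10, and 2.36% rose and 1.50% fell in D5. In families of this size 0 or 1 fall is too few to judge against these shares. Another 18 of the genes in the integrin group, Itgbl1 among them, passed in no comparison. Itga6, the laminin receptor chain typical of embryonic stem cells, was among these, at 7.78 ± 0.09 (SD, n = 3) in ESC, 7.90 ± 0.05 (SD, n = 3) in D5 and 7.97 ± 0.20 (SD, n = 2) in D10. The D10 interval of its log2 change ran from -0.06 to 0.44 (limma, adjusted p = 0.381). Itga2b, the platelet and early blood progenitor chain, had means of 4.41, 4.34 and 4.28 in ESC, D5 and D10, with a D10 interval of -0.66 to 0.41. The log2 changes of the 18 genes ran from -0.23 to 0.39 in D5 and from -0.36 to 0.66 in D10. The collagen receptor chain Itga1 gave the upper end of both ranges, with a D10 interval of 0.16 to 1.17 (limma, adjusted p = 0.117). The remaining genes without a call in this group were Itga7 and the epithelial chain Itgb4 (laminin), Itga9, Itga10, Itga11 and Itgb2l, besides Itgb3, Itgb6, Itgad, Itgae, Itgal, Itgam, Itgax, Itgb2 and Itgbl1.

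The chains Itgam, Itgal and Itgb2 of leukocyte integrins gave no call. Itgam, the alpha chain of Mac-1 on myeloid cells, had means of 3.28, 3.26 and 3.20 in ESC, D5 and D10, and Itgb2, the shared beta chain of leukocytes, had means of 3.73, 3.57 and 3.68, all below background. Itgal, the alpha chain of LFA-1, had means of 4.03 ± 0.10 (SD, n = 3), 3.88 ± 0.11 (SD, n = 3) and 3.68 ± 0.04 (SD, n = 2), the last below background, and its D10 change of -0.35 did not pass (limma, adjusted p = 0.0785). The genes of the integrin group that lay below background in every group numbered 6, Itgae, Itgam, Itgax, Itgb2, Itgb6 and Itgbl1. The leukocyte alpha chains Itgad, Itgal, Itgam and Itgax lie together on chromosome 7, per RefSeq, and 0 of the 4 passed. Over all probe sets 2.36% rose and 1.50% fell in D5, and 5.32% rose and 3.33% fell in D10. With 4 genes a count of 0 is too few to judge against these shares.

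Of the type I cadherins, Cdh1 and Cdh2 are the pair exchanged in the cadherin switch. Cdh2 (N-cadherin) read 5.02, 5.10 and 4.65 in ESC, 5.84, 6.13 and 5.60 in D5, and 6.25, 6.20 and 6.42 in D10. The groups were separate in the order ESC, D5, D10. Cdh2 rose by 0.93 (SE 0.16), or 1.9-fold, in D5 (limma, adjusted p = 0.0167) and by 1.34 (SE 0.18), or 2.53-fold, in D10 (limma, adjusted p = 0.00242), the largest change among the 51 genes in each comparison with ESC. The D5 call was lost without ESC replicates 1 or 3 or D5 replicates 1 or 2 (highest adjusted p = 0.0642). D10 minus D5 was 0.41, with a 95% interval of 0.01 to 0.82 (limma, adjusted p = 0.503).

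Cdh1 (E-cadherin) read 9.13, 9.06 and 9.21 in ESC, 8.74, 8.84 and 8.72 in D5, and 8.86, 8.81 and 8.87 in D10. All ESC arrays lay above those of both lines, and the lines overlapped. Cdh1 fell by 0.36 (SE 0.08) on the log2 scale, or 1.29-fold, in D5 (limma, adjusted p = 0.0454). Its D10 change of -0.30 (95% interval -0.50 to -0.09) did not pass (limma, adjusted p = 0.0867), except in 2 alternatives, the intensity trend with robust estimation and the 9 arrays counted separately. The D5 call was lost in 10 of the 18 alternatives, among them those without any 1 of the ESC or D5 arrays or without D10 replicate 2 (highest adjusted p = 0.155). The lowest array of the re-derived lines still read 8.72.

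Cdh3 (P-cadherin), its neighbour on chromosome 8, had means of 6.65 ± 0.12 (SD, n = 3) in ESC, 6.16 ± 0.19 (SD, n = 3) in D5 and 6.35 ± 0.26 (SD, n = 2) in D10. Its D5 change of -0.49 (95% interval -0.80 to -0.18) did not pass (limma, adjusted p = 0.0989). Cdh4 (R-cadherin, known from retina and brain) read 4.57, 4.95 and 4.82 in ESC, 5.58, 5.20 and 5.51 in D5, and 5.22, 5.01 and 5.28 in D10. It was highest in D5, where it rose by 0.65 (SE 0.14) against ESC (limma, adjusted p = 0.0395). The D10 change of 0.35 did not pass (limma, adjusted p = 0.233), and the D5 call was lost without any 1 of the ESC arrays, D5 replicates 1 or 3, or D10 replicate 2 (highest adjusted p = 0.136). Cdh15 (M-cadherin of muscle) had means of 4.38, 4.45 and 4.37.

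Of the 13 type II cadherins 2 rose in D5 and 5 in D10, with medians of 0.23 and 0.28, where 2.36% and 5.32% of all probe sets rose. None fell, where 1.50% and 3.33% of all probe sets did. Cdh11 (OB-cadherin), typical of mesenchymal cells and osteoblasts, read 6.88, 7.19 and 6.91 in ESC, 7.51, 7.90 and 7.59 in D5, and 8.37, 8.10 and 8.29 in D10. No array of 1 group reached those of the next. Cdh11 rose by 0.67 (SE 0.13) in D5 (limma, adjusted p = 0.0307) and by 1.22 (SE 0.15), or 2.33-fold, in D10 (limma, adjusted p = 0.0016). Its D5 call was lost without ESC replicates 1 or 3, any 1 of the D5 arrays, or D10 replicate 2 (highest adjusted p = 0.121).

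Cdh6 (K-cadherin), expressed in kidney and neural crest, read 4.27, 4.27 and 4.26 in ESC, 4.91, 4.73 and 4.76 in D5, and 5.09, 4.86 and 5.07 in D10. It was higher in both lines, which overlapped, by 0.53 (SE 0.09) in D5 (limma, adjusted p = 0.0161) and by 0.71 (SE 0.10) in D10 (limma, adjusted p = 0.00354). The D5 call was lost without any 1 of the ESC arrays or D5 replicate 1 (highest adjusted p = 0.0668). Cdh5 (VE-cadherin), the cadherin of endothelium, rose by 0.52 (SE 0.11) in D10 (limma, adjusted p = 0.0243), from 3.39 ± 0.14 (SD, n = 3) in ESC, below background, to 3.92 ± 0.15 (SD, n = 2). Beside it, of 12 endothelial markers 2 rose (Kdr and Flt1) and 2 fell (Tek and Cldn5) in D10, where 5.32% and 3.33% of all probe sets rose and fell. In D5 0 of them rose and 1 fell, where the shares were 2.36% and 1.50%. The summed linear signal of the 12 markers was 429.9 to 449.1 in ESC, 394.2 to 404.2 in D5 and 415.1 to 428.2 in D10. The part of endothelial cells in the Cdh5 value was not tested.

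Cdh10, a cadherin of brain, rose by 0.74 (SE 0.18) in D10 (limma, adjusted p = 0.0347), from 3.34 ± 0.28 (SD, n = 3) in ESC, below background, to 4.08 ± 0.01 (SD, n = 2). Cdh19, known from neural crest and nerve sheath cells, rose by 0.60 (SE 0.12) in D10 (limma, adjusted p = 0.0188), but its means of 2.35, 2.81 and 2.95 lay below background in every group. The D10 calls of Cdh5, Cdh10 and Cdh19 were lost without D10 replicate 2 (adjusted p = 0.149, 0.149 and 0.11). That of Cdh5 was also lost without ESC replicates 1 or 2, and that of Cdh10 without ESC replicates 1 or 3 or D5 replicates 1 or 2. Cdh18 was read from a probe set whose mean of 8.65 stands far from those of its other probe sets (3.77 and 3.22) and whose accession was not matched to Cdh18, so its level is uncertain. None of the 3 probe sets passed.

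**Figure D3:**
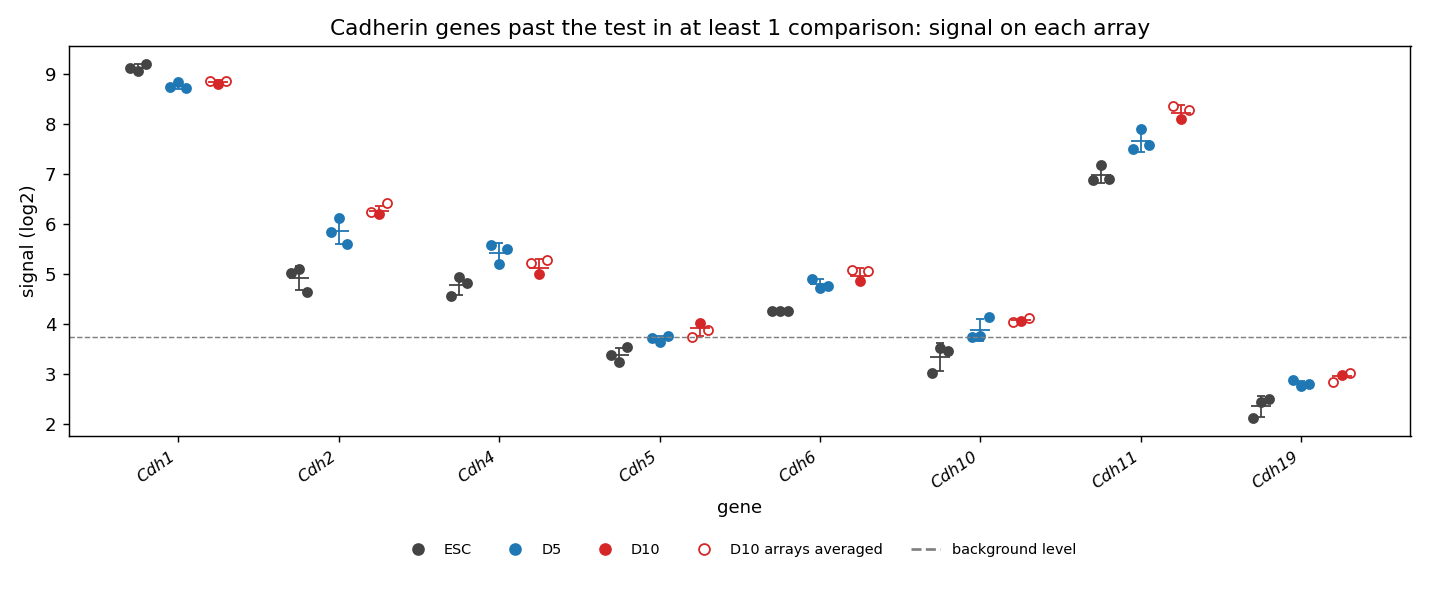
Log2 signal on each array for the 8 cadherin genes past the test in at least 1 comparison, with bars for mean and SD, open points for the averaged D10 arrays and a dashed line at the background level of 3.75. Cdh2 and Cdh11 are separate in the order ESC, D5, D10, Cdh1 is highest in ESC, and Cdh19 lies below the line throughout.

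The 5 cadherins of other kinds gave no call. Cdh13 (T-cadherin), which is held by a lipid anchor and binds adiponectin, came nearest, with means of 3.84 ± 0.22 (SD, n = 3) in ESC, 3.84 ± 0.18 (SD, n = 3) in D5 and 4.39 ± 0.12 (SD, n = 2) in D10. Its D10 change of 0.55 (95% interval 0.21 to 0.90) missed the threshold (limma, adjusted p = 0.0607), and 5 of the 18 alternatives called it, the one without ESC replicate 2 among them. In total 15 cadherin genes passed in no comparison, with changes from -0.49 to 0.23 in D5 and from -0.30 to 0.55 in D10, and 6 of them (Cdh7, Cdh9, Cdh12, Cdh17, Cdh20 and Cdh26) lay below background in every group. The others among them were Cdh3, Cdh8, Cdh13, Cdh15, Cdh16, Cdh18, Cdh22, Cdh23 and Cdh24. Cadherin genes are clustered in the genome. Of the 23, 8 lie on chromosome 8 in RefSeq, where in D10 Cdh5 and Cdh11 rose and the other 6, Cdh1 and Cdh3 among them, did not pass. Another 5 lie on chromosome 15, where Cdh6 and Cdh10 rose and Cdh9, Cdh12 and Cdh18 did not pass. Over all probe sets 5.32% rose in D10, and a link of these calls to position was not tested.

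Of 30 adaptor genes that tie integrins to actin, 6 rose and 0 fell in D5 (median 0.14), and 11 rose and 0 fell in D10 (median 0.31), beside medians of -0.01 and -0.02 over all probe sets. Of all probe sets 2.36% rose in D5 and 5.32% in D10, and 3.63% and 7.78% of those above background. Parva (alpha-parvin), which binds integrin-linked kinase at focal adhesions, rose from 5.87, 6.01 and 5.85 in ESC to 7.03, 7.21 and 6.99 in D5 and 7.60, 7.50 and 7.62 in D10. No groups overlapped, and the change was 1.16 (SE 0.09) in D5 (limma, adjusted p = 0.000566) and 1.64 (SE 0.10) in D10 (limma, adjusted p = 9.94e-05). Vcl (vinculin), which reinforces the link of talin to actin, rose by 0.64 (SE 0.11) in D5 (limma, adjusted p = 0.019) and by 0.92 (SE 0.13) in D10 (limma, adjusted p = 0.00283). The D5 count was 2 without ESC replicate 3, 1 without D5 replicate 1 and 2 without D5 replicate 2, and the D10 count was 6 without D10 replicate 2.

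Of 30 integrin ligands in the matrix and on cells, 10 rose and 1 fell in D5 (median 0.24), and 17 rose and 1 fell in D10 (median 0.52). Of all probe sets 2.36% rose and 1.50% fell in D5, and 5.32% rose and 3.33% fell in D10, so that a single fall among 30 is near the array-wide share. The largest rises in D5 were Ltbp1 (1.12, SE 0.10), which holds latent TGF-beta in the matrix, and the collagen gene Col1a1 (0.94, SE 0.12). In D10 they were Thbs1 (thrombospondin 1) at 1.92 (SE 0.14) and Ltbp1 at 1.74 (SE 0.11). Thbs1 read 8.21, 8.65 and 8.20 in ESC, 9.14, 9.26 and 9.31 in D5, and 10.35, 10.20 and 10.33 in D10, with no overlap of groups. It was 1 of 2 ligands that also rose from D5 to D10, by 1.03 (limma, adjusted p = 0.0463), the other being Ccn1, a matricellular protein, by 0.71 (limma, adjusted p = 0.0457). The ligand that fell was Lama1, a laminin chain of early embryos, by 0.40 (SE 0.09) in D5 (limma, adjusted p = 0.0424) and by 0.85 (SE 0.10) in D10 (limma, adjusted p = 0.00115). Col1a1 and Fbn1 stand on the fibroblast list too. The D5 count of 11 was 6, 7 and 5 without ESC replicates 1, 2 and 3, and 7 and 5 without D5 replicates 2 and 3. The D10 against D5 count of 2 was 0 or 1 without any 1 array other than D10 replicate 3, 0 with array weights, and 10 under an intensity trend and robust estimation.

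Of 22 genes of the proteins that hold cadherins from inside or stand with them in junctions, 1 rose and 1 fell in each comparison with ESC, a count near the shares of all probe sets (2.36% up and 1.50% down in D5, 5.32% up and 3.33% down in D10), with medians of -0.07 in D5 and 0.01 in D10. Ctnnb1 (beta-catenin) read 9.20, 9.18 and 9.20 in ESC, 9.13, 9.26 and 9.14 in D5, and 9.26, 9.15 and 9.25 in D10, and the groups overlapped. The riser was Nectin1, an adhesion protein of adherens junctions, by 0.41 (SE 0.07) in D5 (limma, adjusted p = 0.0221) and 0.55 (SE 0.08) in D10 (limma, adjusted p = 0.00488). The plakophilins of desmosomes gave the falls, Pkp2 by 0.59 (SE 0.11) in D5 (limma, adjusted p = 0.0225) and Pkp3 by 0.50 (SE 0.11) in D10 (limma, adjusted p = 0.0267). The D5 calls were 0 without ESC replicates 1 or 3 or D5 replicates 1 or 3, and 1 without ESC replicate 2 or D5 replicate 2. The D10 count of 2 was 1 without ESC replicate 2 and between 1 and 6 in other alternatives.

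Among 18 desmosomal cadherins, protocadherins and large cadherins, 6 rose in D5 (median 0.19) and 7 in D10 (median 0.30), where 2.36% and 5.32% of all probe sets rose. The 6 were protocadherins and large cadherins. The only desmosomal cadherin that rose was Dsc2, in D10, and its means of 3.20, 3.05 and 3.73 in ESC, D5 and D10 lay below background. None of the 18 fell, where 1.50% and 3.33% of all probe sets did. Pcdh19, a protocadherin that works with N-cadherin, read 4.95, 4.96 and 4.39 in ESC, 6.37, 6.09 and 6.10 in D5, and 6.60, 6.32 and 6.60 in D10. All arrays of both lines lay above all ESC arrays, with a change of 1.42 (SE 0.17) in D5 (limma, adjusted p = 0.00313) and 1.69 (SE 0.19) in D10 (limma, adjusted p = 0.000977). Pcdh18 rose by 1.19 (SE 0.10) in D5 (limma, adjusted p = 0.000659) and by 1.56 (SE 0.11) in D10 (limma, adjusted p = 0.000145). The D5 count was 3 without ESC replicate 1 and 2 without ESC replicate 3.

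Transcription factors and splicing factors tied to the cadherin switch were counted last. Of 14, 1 rose and 1 fell in D5 (median 0.14), and 6 rose and 2 fell in D10 (median 0.33). The shares of all probe sets were 2.36% up and 1.50% down in D5, and 5.32% up and 3.33% down in D10. Zeb2, a repressor of E-cadherin, rose by 0.63 (SE 0.09) in D5 (limma, adjusted p = 0.00868) and by 1.05 (SE 0.10) in D10 (limma, adjusted p = 0.000579). Snai2 (Slug), a repressor of the same gene, read 4.70, 4.58 and 4.89 in ESC, 5.30, 5.21 and 5.11 in D5, and 6.41, 5.90 and 6.35 in D10. The groups did not overlap, and Snai2 rose by 1.42 (SE 0.15) in D10 (limma, adjusted p = 0.000877), with a D5 change of 0.48 that did not pass (limma, adjusted p = 0.105). Klf8, another of the 14, went the other way from Zeb2 and fell by 0.64 (SE 0.09) in D5 (limma, adjusted p = 0.00605). The D10 change of Klf8, -0.35, did not pass (limma, adjusted p = 0.062). In D10 Snai1, Twist1, Twist2 and Foxc2 also rose, Twist1 being a fibroblast marker here as well, and the epithelial regulators Grhl2 and Ovol2 fell, by 0.54 (SE 0.13) and 0.53 (SE 0.12). Beside these, of 12 epithelial and trophoblast markers 6 rose and 1 fell in D10, and in D5 0 rose and 1, Epcam, fell by 0.52 on the log2 scale. Their summed linear signal was 736.9 to 804 in ESC, 645.9 to 691 in D5 and 801.4 to 825.6 in D10, and their part in these results was not tested. The D10 count of 8 was 5 without ESC replicate 3 and 4 without D10 replicate 2, and the D5 count of 2 was 4 under an intensity trend and robust estimation.

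**Figure D4:**
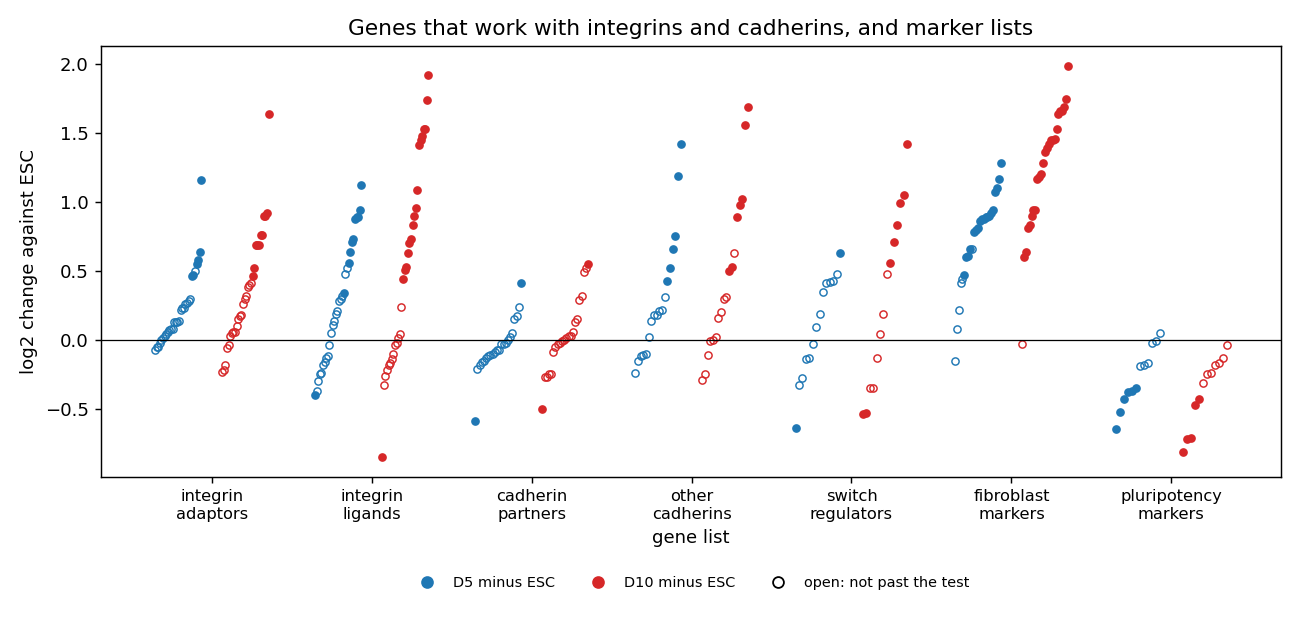
Log2 change against ESC of each gene in 5 lists of genes that work with integrins and cadherins and in 2 marker lists, D5 in blue and D10 in red, filled where the gene passed an adjusted p of 0.05. Of 30 adaptors 6 and 11 rose, of 30 ligands 10 and 17, of 25 fibroblast markers 19 and 24, and of 22 cadherin partners 1 and 1, where 2.36% and 5.32% of all probe sets rose.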

How the data were processed

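Per the labels' protocols, biotin-labelled cDNA was made from total RNA with a whole-transcript assay for Affymetrix arrays. MAS5 was used, per the submitters' processing notes, and the normalization was not given in the sources used here. Log2 values are deposited in 2 identical tables, from 0.70 to 13.82 over 28853 probe sets, with array medians of 4.45 to 4.53. The authors' short table gives linear intensity, which matches 2 to the power of the log2 values within 1.94e-05 on the log2 scale, and ratio (fold) and p-value columns, of which only ratios are printed and none was used for tests.

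The fits were made with limma 3.58.1 (R 4.3.3; lmFit, then eBayes) over 8 samples, with 5 residual and 3.56 prior degrees of freedom, two-sided, without a filter, and p-values were adjusted by Benjamini-Hochberg across the whole array, with a threshold of 0.05. Intervals are 95% and not adjusted. Arrays of a group closer than a fixed share (0.5) of the next smallest spread were averaged. The fit was tested on simulated data. The alternatives, 18 in all, were median centring, quantile normalization, dropping the dimmest 30% of probe sets, a trend of variance with intensity and robust estimation, a fit on the 2 groups compared alone, array weights, the 9 arrays counted separately, the same with the replicate number as a block, the mean of a gene's probe sets, and leaving out each array. The genes and the lists were chosen with earlier results of these data known. Named are the genes past the threshold, 17 genes of general interest, and per list the 2 called members with the largest change. The other genes of the families are listed with their range. Ctnnb1, Fbn1, Lama1, Dsc2, Snai1, Twist1, Twist2, Foxc2, Grhl2, Ovol2, the marker genes and Cdh18 were singled out after their values were seen. All 197 list entries matched a probe set, by symbol or, where the symbol was absent, by a RefSeq synonym. Nectin2, a cadherin partner that passed in no comparison, was read from a probe set labelled Pvr, so its identity is uncertain.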

Additional observations from a re-analysis of the deposited data

How the results depend on the processing

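For D5 against ESC, 9 genes passed as reported, 5 in a fit on the ESC and D5 arrays alone, and 1 to 9 when each array was left out. For D10 against ESC, 16 passed, 8 to 15 when each array was left out and 11 to 21 in the other alternatives. For D10 against D5, 0 passed as reported and when each array was left out, and 3 with an intensity trend and robust estimation and 3 with the 9 arrays counted separately. In every alternative 1 of the 9 calls of D5 against ESC and 8 of the 16 of D10 against ESC were kept, and no named gene past the threshold changed sign. The causes were not tested, beyond the smaller number of samples where arrays were left out. With the replicate number as a block, on the 9 arrays counted separately, 6, 19 and 0 genes passed in the 3 comparisons. The numbers are not taken as pairs, since deviations of same-numbered samples correlated between -0.38 and 0.30. The number of arrays limits the precision, and the level of dim genes is uncertain.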
